A study of Mus musculus with 4 samples.

Results

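The genes described here encode core proteins of the spliceosome and the SR proteins and hnRNPs that steer it. They were chosen by symbol alone, as every gene beginning with Snrp, Sf3a, Sf3b or Hnrnp, or with Srsf and a digit, and 1 pseudogene symbol that also matched was left out. The rule took 52 of the 16142 genes in the deposited table. Of these, 50 had a mean of at least 1 FPKM over all libraries and were tested, namely 11 of 12 Snrp genes, 9 of 9 Sf3a and Sf3b genes, 10 of 11 Srsf genes and 20 of 20 Hnrnp genes. FPKM divides reads by the length of the gene and the size of the library, so levels of different genes can be set beside each other. The lowest mean among the 50 was 12.2 FPKM (Hnrnph3), and this gene was above 10 FPKM in every library, so no gene entered the test through its level in 1 group alone. Snrpn, a copy of Snrpb with tissue-restricted expression, stood at 0.08 and 0.07 FPKM (WT) against 0.03 and 0 FPKM (R111A), and Srsf12 at 0.15 and 0.11 FPKM (WT) against 0.18 and 0 FPKM (R111A), and neither was tested.

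The RNA-seq libraries came from CD4+ T cells of mouse spleen, 2 from WT and 2 from R111A. WT cells came from B6 mice. R111A cells came from Cd4CreERT2 LSL-R111A fl/fl mice, in which tamoxifen, at 75 mg/kg into the peritoneum for 5 days, lets Cre under Cd4 control remove a stop cassette from a Rosa26 transgene. That transgene then expresses, from a CAG promoter and together with EGFP, Regnase-1 with the R111A change, an alanine in place of an arginine at its MALT1 cleavage site, while the endogenous gene is kept. The sample notes name tamoxifen once after both kinds of mice, which can be read as given to both, and tamoxifen-treated WT mice served as controls in the study's cell death assays. Age and sex are given only for the study as a whole, as 6 to 12 weeks and both sexes, apart from exceptions that it names. Both groups of sorted cells then received anti-CD3 (5 µg/mL) plus anti-CD28 (1 µg/mL) for 12 h. Regnase-1 is an endonuclease that degrades mRNAs of activated T cells, and the comparison asks how its mutant form changes the transcriptome. Zc3h12a, which encodes it, stood at 17.0 and 15.7 FPKM (WT) against 196 and 131 FPKM (R111A), the direction that the labels give.

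In splicing, the small nuclear ribonucleoproteins (snRNPs) recognize the ends of an intron and its branch point, and a ring of Sm proteins holds each of their RNAs except U6. SR proteins bind exonic enhancers and recruit the machinery, whereas hnRNPs coat nascent transcripts and often silence splice sites. In T cells, activation changes both the output of this machinery and the choice of exons, of which the CD45 mRNA, bound by hnRNP L and hnRNP LL, is the textbook case.

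The libraries differed in scale and in spread. The sum of all FPKM was 801475 and 836143 for WT, and 1053550 and 1012210 for R111A. The 94 genes of ribosomal proteins (symbols beginning with Rpl or Rps and a digit) took 35.5% and 37.1% of that sum in WT and 51.0% and 49.5% in R111A. Relative depth was estimated from genes between 0.1 and 0.6 FPKM, as the peak of the density of their ratios, and this depends on the bandwidth, of which 5 were tried after the data were seen and none is preferred. Over these, WT replicate 1 had between 1.00 and 1.01 times the depth of WT replicate 2 and between 1.05 and 1.06 times that of R111A replicate 1. For R111A replicate 2 the estimate ran from 0.947 to 1.18, so even its direction is not determined, and how many reads lie behind a value is unknown. Nothing in the sources used here says that the replicates are separate animals, so the p-values measure only the spread between these libraries, which may be technical. The R111A libraries differed from each other more than the WT libraries did. For the 50 genes tested, the SD of the log2 difference between replicates was 0.14 in WT and 0.37 in R111A. Over all genes tested it was 0.17 in WT and 0.31 in R111A, so the wider spread was not particular to the 50. Of these 50 genes, 24 differed by over 1.2-fold between the R111A replicates against 2 between the WT replicates. The ribosomal protein share, the 1.2-fold limit and the relation to base composition given further on were looked at after the data were seen.

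More than 1 in 2 of the 50 transcripts fell in R111A cells, most of these by less than 2-fold, and the others did not pass the test. The change was tested with limma on log2(FPKM + 1), with p-values adjusted by Benjamini-Hochberg over all 9831 genes tested, and a gene is said to have fallen or risen where its adjusted p was under 0.05. By this rule 32 of the 50 genes fell, against 32.1% of all genes tested, and 0 rose, against 21.2% of all genes. With a 2-fold change required as well, the thresholds of the study's methods, 5 of the 50 genes were lower, close to the 8.34% of all genes, and 0 were higher, against 8.52%. No gene of the 50 was higher at an unadjusted p under 0.05 either, against 23.6% of all genes, and 35 were lower, against 35.8%. The median log2 fold change was -0.54 for the 50 genes and -0.12 for all genes tested. Both R111A libraries lay below both WT libraries for 38 of the 50 genes, against 46.3% of all genes, above them for 1 gene, against 32.0% of all genes, and the groups overlapped for 11. Of the 32 genes that fell, 19 kept an adjusted p under 0.05 in all 15 alternative fits, 11 lost it with quantile normalization and 7 with median-of-ratios factors, and with no filter on low genes 26 members fell, in a fit where the share of all genes that fell was 19.8%.

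These counts depend on how the libraries are scaled. Rescaling each library to the same sum (TPM) moved the median of all genes to -0.42 and that of the 50 genes to -0.87. The 50 genes lay 0.42 below the median of all genes as deposited and 0.46 below it after rescaling. A single factor per library shifts nearly all genes alike, so TPM could hardly change this distance. Relative to the median of all genes, the 50 genes stood at -0.33 with quantile normalization and at -0.52 with no filter on low genes. With TPM, 43 of the 50 genes fell and 20 were also at least 2-fold lower, against 51.8% and 17.8% of all genes, where the calls went from 2088 risen and 3152 fallen to 1335 and 5096, and those at least 2-fold lower from 820 to 1749. As deposited 43 of the 50 log2 fold changes were below 0, against 57.6% of all genes, and 7 were above 0, none of the 7 passing the test. With TPM all 50 were below 0, in a fit where the median of all genes was itself -0.42. The summed FPKM of all 52 genes was 14850 and 14892 in WT against 10569 and 11362 in R111A, or 1.85% and 1.78% of all FPKM against 1.00% and 1.12%. Leaving the ribosomal protein genes out of the total, the WT shares were 2.87% and 2.83% and the R111A shares 2.05% and 2.22%. The R111A libraries thus held the smaller share on either base.

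**Figure D1:**
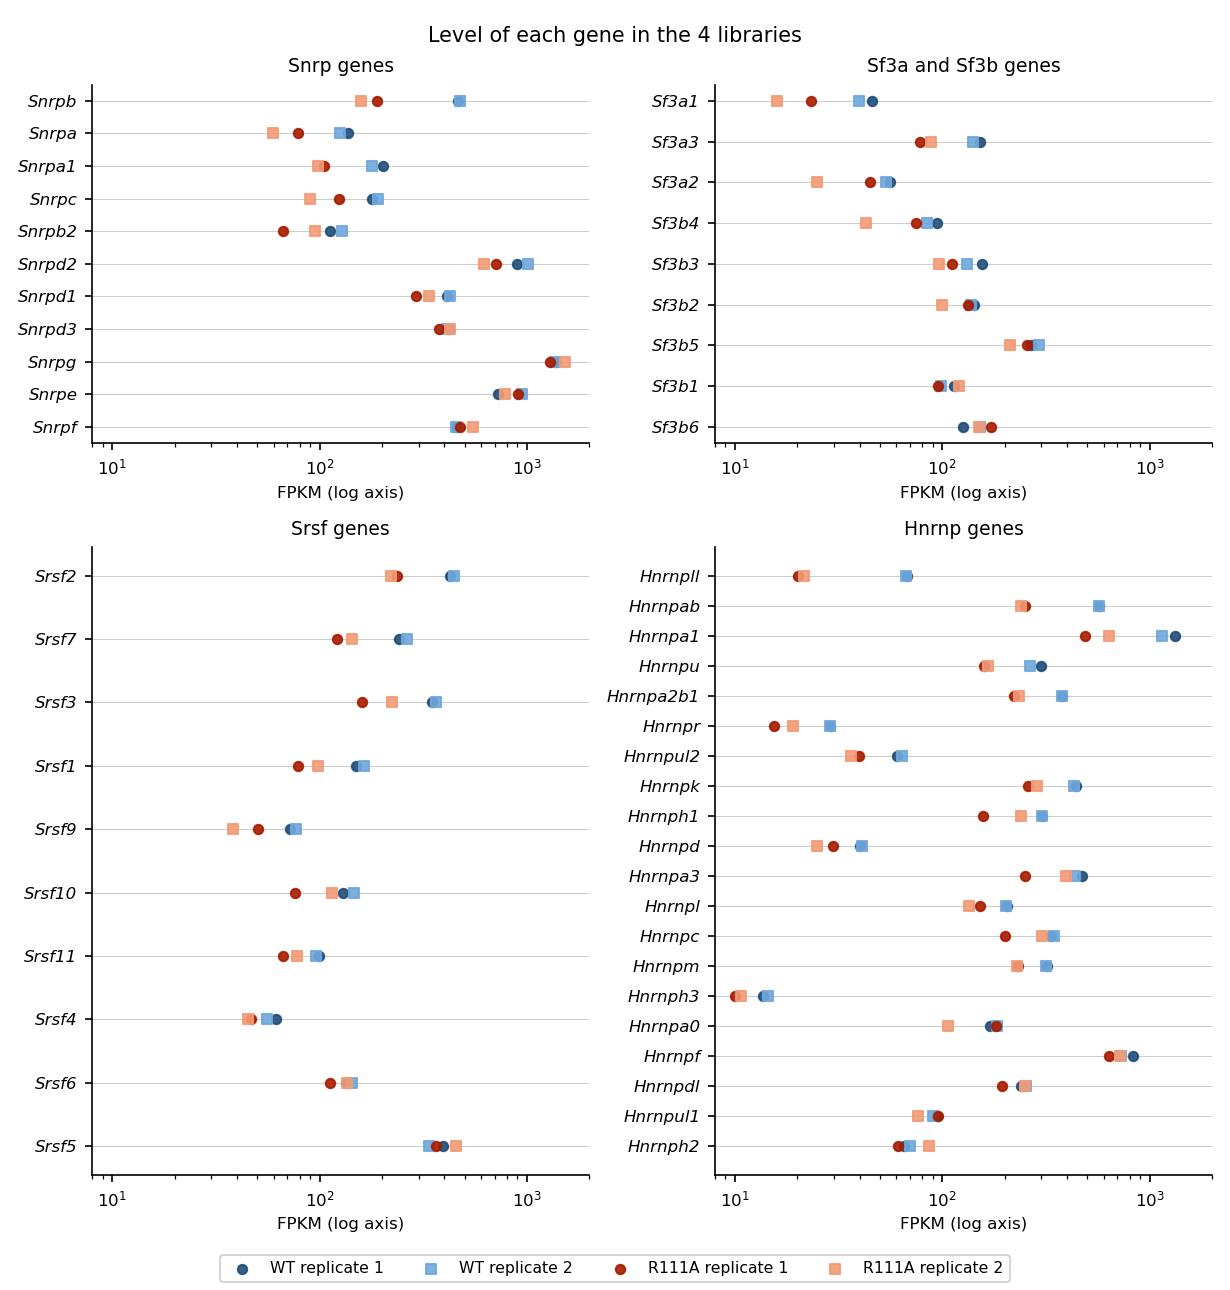
FPKM (log axis) of the 50 genes tested in each of the 4 libraries, by class and ordered within a class from the lowest log2 fold change at the top; circles are replicate 1 and squares replicate 2, blue for WT and red for R111A. Red points lie left of both blue points for 38 genes, and at the bottom of each class, as for Snrpf, Sf3b6, Srsf5 and Hnrnph2, they overlap with the blue points or lie to their right.

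Among the snRNP proteins the change was uneven within a single complex. Snrpb, which encodes the Sm proteins B and B′ (NCBI gene 20638; chromosome 2 from 130171636 to 130179382 in GRCm38), stood at 464 and 477 FPKM (WT) against 190.1 and 159 FPKM (R111A). Both R111A libraries lay far below both WT libraries, and the log2 fold change was -1.43 (limma adjusted p = 6.6e-05, standard error 0.13). This is -1.32 relative to the median of all genes. With TPM the log2 fold change was -1.76, or -1.35 relative to the median of all genes in that fit.

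The other Sm subunits fell by less or did not pass the test. Snrpd2 stood at 892 and 1013 FPKM (WT) against 708 and 622 FPKM (R111A), and Snrpd1 at 411 and 427 against 292 and 335 FPKM, and both fell by 0.52 and 0.42 on the log2 scale (limma adjusted p = 0.011 and 0.024), the latter call lost with median-of-ratios factors. Snrpd3 stood at 423 and 412 FPKM (WT) against 377 and 426 FPKM (R111A), with overlapping groups. Snrpg, the most abundant of the 50 transcripts in every library, stood at 1389 and 1370.2 FPKM (WT) against 1296 and 1521 FPKM (R111A), and Snrpe at 722 and 948 FPKM against 903 and 788 FPKM. Snrpf was the gene whose R111A libraries, at 473 and 548 FPKM, both lay above the WT libraries, at 453 and 454 FPKM. For Snrpd3, Snrpe, Snrpf and Snrpg the log2 fold changes were -0.06, 0.03, 0.17 and 0.03, with limma's 95% intervals from -0.35 to 0.23, from -0.34 to 0.39, from -0.13 to 0.46 and from -0.27 to 0.32; none passed the test, and with TPM all 4 values were below 0, with Snrpd3 past the test. That of Snrpd3 was above 0 with median-of-ratios factors, and Snrpf rose when R111A replicate 1 was left out.

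The shares of the subunits within each library, computed after the values were seen, do not change when a library is multiplied by a single factor, and are another view of the same values; quantile normalization and the length and GC trend can change them. Of the summed FPKM of the 7 Sm genes, Snrpb made up 9.76% and 9.35% in the WT libraries and 4.48% and 3.62% in the R111A libraries. The share of Snrpd2 was 18.8% and 19.9% in WT and 16.7% and 14.1% in R111A. That of Snrpd1 was lower too, at 8.64% and 8.36% against 6.89% and 7.62%. Shares add up to a fixed total, so the higher shares of Snrpd3, Snrpf and Snrpg are in themselves no sign of a change in these genes. Snrpe, which varied most between the WT replicates (15.2% and 18.6%), had overlapping shares. These shares are mRNA levels per length and say nothing of the proteins in the ring.

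The proteins particular to the U1 and U2 snRNPs are the remaining 4 genes of the class, and each of them fell. Snrpa, which binds a stem-loop of U1 RNA, stood at 136 and 126 FPKM (WT) against 78.8 and 59.8 FPKM (R111A). Snrpc, the U1 protein that stabilizes pairing with the 5′ splice site, stood at 179 and 190.4 FPKM against 124 and 89.6 FPKM. The log2 fold changes were -0.92 for Snrpa and -0.81 for Snrpc (limma adjusted p = 0.0014 and 0.0038). Snrpa1 and Snrpb2, which form a pair on U2 RNA, stood at 201 and 179 FPKM against 105 and 98.2 FPKM and at 112 and 128 FPKM against 66.4 and 95.4 FPKM. Snrpa1 fell by 0.90 and Snrpb2 by 0.59 on the log2 scale (limma adjusted p = 5.8e-04 and 0.024). Without R111A replicate 1 the log2 fold change of Snrpb2 was -0.33. In all, 7 of the 11 Snrp genes tested fell, against 32.1% of all genes, and the median log2 fold change of the class was -0.52. Without WT replicate 2 only 4 fell, against 19.7% of all genes, the calls of Snrpb2, Snrpd1 and Snrpd2 being lost, and without R111A replicate 1 the median was -0.33, or 0.23 below that of all genes. The call of Snrpb2 was also lost with no filter and with quantile normalization, and that of Snrpd1 with quantile normalization and without WT replicate 1.

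**Figure D2:**
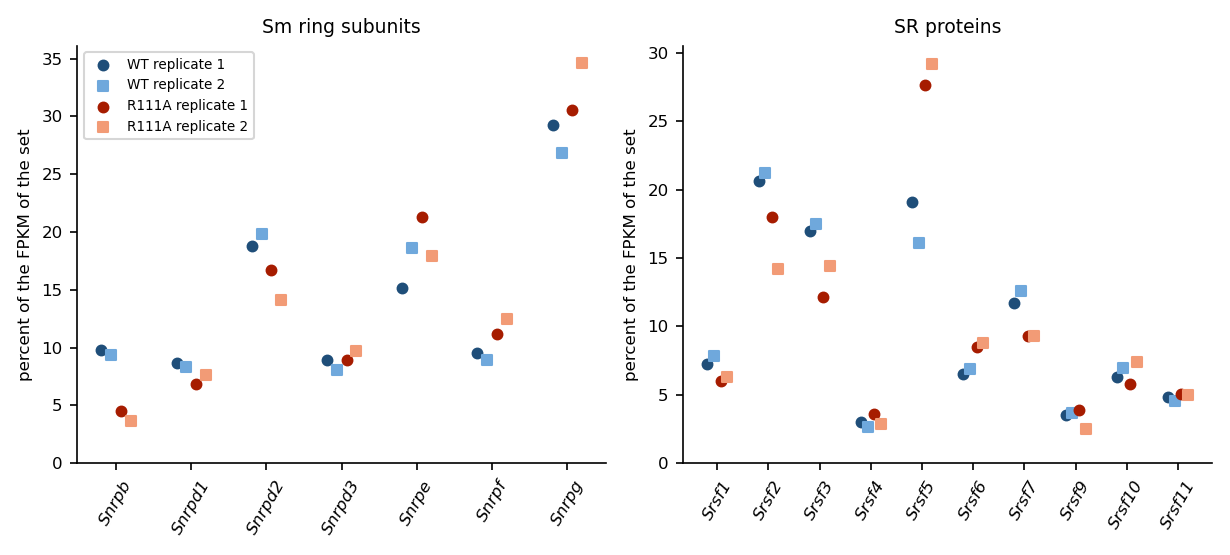
Left, percent of the summed FPKM of the 7 Sm genes held by each gene; right, the same for the SR proteins (Srsf12, near 0, is not drawn), in each of the 4 libraries with blue for WT and red for R111A. The R111A libraries lie lower for Snrpb (4.48% and 3.62% against 9.76% and 9.35%) and higher for Srsf5 (27.7% and 29.2% against 19.1% and 16.1%).

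The SF3a and SF3b complexes belong to the U2 snRNP and hold the branch point. All 3 SF3a subunits fell. Sf3a1 (NCBI gene 67465, chromosome 11 from 4160354 to 4182541) stood at 46.0 and 39.7 FPKM (WT) against 23.2 and 15.9 FPKM (R111A). The log2 fold change of Sf3a1 was -1.11 (limma adjusted p = 0.0013, standard error 0.19). It was inside a 2-fold decrease with a pseudocount of 5 FPKM (-0.97), with quantile normalization (-0.98) and without R111A replicate 2 (-0.85). Sf3a3 stood at 152 and 140.0 FPKM (WT) against 77.7 and 88.4 FPKM (R111A) (-0.81, limma adjusted p = 0.0012). Sf3a2 stood at 56.1 and 53.5 FPKM against 45.0 and 24.9 FPKM (-0.69, limma adjusted p = 0.037), so that its R111A libraries lay further from each other than the higher of them from WT. Without R111A replicate 2 its log2 fold change was -0.28.

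In SF3b, 2 of the 6 subunits that the rule took fell. Sf3b4, which contacts the intron upstream of the branch point, stood at 94.7 and 84.0 FPKM (WT) against 75.1 and 43.0 FPKM (R111A), and Sf3b3, a large scaffold subunit, at 155 and 131 FPKM against 112 and 96.5 FPKM. Their log2 fold changes were -0.64 (-0.25 without R111A replicate 2) and -0.45 (limma adjusted p = 0.045 and 0.027). Both calls were lost with median-of-ratios factors (adjusted p = 0.085 and 0.070) and with quantile normalization, as was that of Sf3a2 (adjusted p = 0.069 with median-of-ratios factors). Sf3b1, the largest subunit and the one that clamps the branch helix, stood at 113 and 98.2 FPKM (WT) against 95.1 and 121 FPKM (R111A). Sf3b6, whose product lies at the branch adenosine, stood at 125 and 152 FPKM against 172 and 150.4 FPKM, and had the highest log2 fold change of the 50 genes, 0.22 (95% interval -0.11 to 0.55). It passed the test only with quantile normalization, where it was higher, and its value with TPM was -0.11. Sf3b2 at 142 and 137 FPKM against 133 and 99.99 FPKM, and Sf3b5, the most abundant of the class, at 266 and 294 FPKM against 257 and 211 FPKM, did not pass, although both R111A libraries were below both WT libraries. Both fell with TPM and without R111A replicate 1. The ratio of Sf3b1 to Sf3b3 was 0.733 and 0.748 in the WT libraries and 0.850 and 1.25 in the R111A libraries. Over the 9 genes 5 fell, against 32.1% of all genes, with a median of -0.45, and both values depend on the setting. Only 2 of the 9 fell with median-of-ratios factors, with quantile normalization, with no filter or without WT replicate 1, near the shares of all genes in those fits (27.0%, 26.7%, 19.8% and 19.9%). Without R111A replicate 2 it was 3, against 38.6% of all genes. The median was -0.22 with quantile normalization and -0.25 without R111A replicate 2, the latter 0.11 below the median of all genes in that fit. Besides the losses given above, the calls of Sf3b3, Sf3b4 and Sf3a2 were lost without WT replicate 1, those of Sf3b3 and Sf3b4 without R111A replicate 2, and that of Sf3b3 without WT replicate 2.

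**Figure D3:**
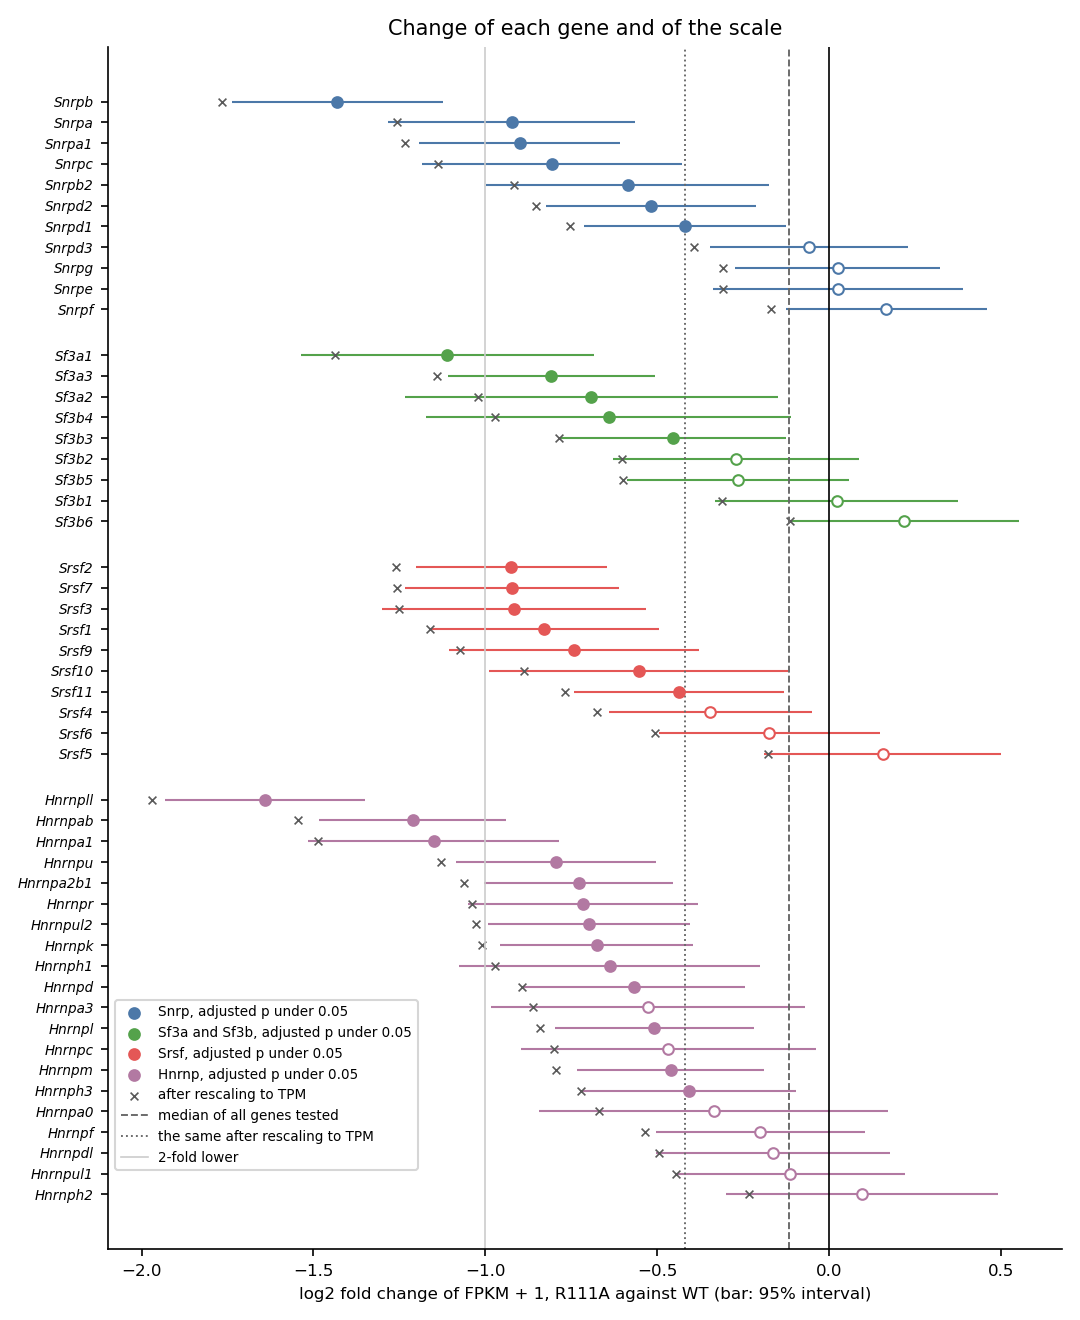
Log2 fold change (FPKM + 1, R111A against WT) of the 50 genes with limma's 95% interval, coloured by class, filled where the adjusted p was under 0.05; crosses give the value after rescaling to TPM, the dashed and dotted lines the median of all genes as deposited (-0.12) and after TPM (-0.42), and the grey line a 2-fold decrease. In each class the points run from well below the dashed line, with Hnrnpll lowest at -1.64, to values at or above 0, all of which are below 0 after TPM.

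SR proteins split by member. Srsf1, Srsf2, Srsf3, Srsf7, Srsf9, Srsf10 and Srsf11 fell, whereas Srsf4, Srsf5 and Srsf6 did not pass the test. So 7 of the 10 Srsf genes tested fell, against 32.1% of all genes. The split depends on the setting, since with TPM Srsf4 and Srsf6 fell too (adjusted p = 0.0013 and 0.0092). In that fit 9 of the 10 genes fell, against 51.8% of all genes. Under quantile normalization 5 of the 10 fell, against 26.7% of all genes. Scaling by median-of-ratios factors also left 5, against 27.0% of all genes. Srsf4 also fell with a pseudocount of 5 FPKM, with the length and GC trend removed and without either R111A library, and Srsf6 without R111A replicate 2. Srsf2, the SR protein that binds both C-rich and G-rich enhancers, stood at 424 and 444 FPKM (WT) against 236 and 220.3 FPKM (R111A) (-0.92, standard error 0.12, adjusted p = 3.8e-04 from limma). Srsf7, which carries a zinc knuckle, stood at 241 and 264 FPKM against 122 and 144 FPKM, and Srsf3, the smallest SR protein, at 348 and 366 FPKM against 159 and 224 FPKM. Srsf7 and Srsf3 both fell by 0.92 on the log2 scale (limma adjusted p = 7.0e-04 and 0.0021). These 3 genes stood just inside a 2-fold decrease as deposited, and with TPM each was past it.

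Srsf1, the SR protein first purified as a splicing factor, stood at 149 and 164 FPKM (WT) against 78.6 and 97.8 FPKM (R111A) (-0.83, adjusted p = 0.0017 from limma). Srsf9, its close relative, stood at 71.7 and 77.3 FPKM against 50.7 and 38.3 FPKM (-0.74, limma adjusted p = 0.0046). Their ratio was 2.08 and 2.12 in WT and 1.55 and 2.55 in R111A, and so overlapped between the groups. Srsf10 and Srsf11 fell by 0.55 and 0.44 on the log2 scale (limma adjusted p = 0.037 and 0.023), and both calls were lost with median-of-ratios factors (adjusted p = 0.065 and 0.055). Srsf11 stood at 99.6 and 96.0 FPKM (WT) against 66.7 and 77.8 FPKM (R111A), and Srsf10 at 130 and 146 FPKM against 76.1 and 114 FPKM. Without R111A replicate 1 the log2 fold change of Srsf10 was -0.26.

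Srsf5, the most abundant SR protein mRNA in both R111A libraries (Srsf2 was so in both WT libraries), had the highest fold change of the class. It stood at 393 and 336 FPKM (WT) against 363 and 452 FPKM (R111A), with a log2 fold change of 0.16 (95% interval -0.19 to 0.50) that did not pass the test and was -0.18 with TPM. Within the SR protein mRNAs its share went from 19.1% and 16.1% in WT to 27.7% and 29.2% in R111A, and that of Srsf2 from 20.7% and 21.2% to 18.0% and 14.2%; a share of Srsf5 is also higher when the sum of the others is lower, so it is in itself no sign of a change in Srsf5. The ratio of Srsf2 to Srsf5 was accordingly 1.08 and 1.32 in the WT libraries and 0.651 and 0.487 in the R111A libraries. Srsf6 stood at 134 and 144 FPKM (WT) against 112 and 136 FPKM (R111A) (-0.17), and Srsf4 at 61.6 and 55.6 FPKM against 46.8 and 44.9 FPKM (-0.35, limma adjusted p = 0.051). In contrast to Srsf2 and Srsf5, the ratio of Srsf3 to Srsf7 overlapped between the groups, at 1.45 and 1.39 in WT and 1.31 and 1.55 in R111A. Over the 10 genes the median was -0.65, and -0.42 with quantile normalization. Without WT replicate 2 the calls of Srsf10 and Srsf11 were lost, without WT replicate 1 that of Srsf11, and without R111A replicate 1 that of Srsf10. Both calls were also lost with quantile normalization, and that of Srsf10 with no filter.

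Of the 20 hnRNP genes 13 fell, against 32.1% of all genes, and 3 of these were past both thresholds, against 8.34%. Hnrnpll (NCBI gene 72692; chromosome 17 from 80029487 to 80062268), whose product shifts CD45 towards its short isoform in activated T cells, stood at 67.2 and 67.0 FPKM (WT) against 20.2 and 21.5 FPKM (R111A). It was the lowest of the 50 genes by fold change, -1.64 (standard error 0.13, adjusted p = 2.7e-05 from limma), or -1.53 relative to the median of all genes. Its paralogue Hnrnpl stood at 205 and 203 FPKM (WT) against 152 and 135 FPKM (R111A) (-0.51, limma adjusted p = 0.0095). The ratio of Hnrnpl to Hnrnpll was 3.05 and 3.04 in the WT libraries and 7.54 and 6.30 in the R111A libraries, with each group far from the other. The CD45 isoforms cannot be read from values given per gene.

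Hnrnpab (NCBI gene 15384; chromosome 11 from 51600100 to 51606881), which encodes an RNA-binding protein of the A/B type, stood at 569 and 569 FPKM (WT) against 251 and 239.8 FPKM (R111A) (-1.21, standard error 0.12, adjusted p = 8.2e-05 from limma). Hnrnpa1 (NCBI gene 15382; chromosome 15 from 103239943 to 103246698), an antagonist of SR proteins at many exons and the most abundant hnRNP mRNA in both WT libraries, stood at 1330.1 and 1153 FPKM (WT) against 487 and 638 FPKM (R111A) (-1.15, standard error 0.16, adjusted p = 5.0e-04 from limma). Relative to the median of all genes these values were -1.10 and -1.04. Hnrnpa1 was no longer past the 2-fold threshold with quantile normalization or without R111A replicate 1 (-0.96). Hnrnpa1 has many processed copies in the genome, and reads shared with them were not examined here. Hnrnpa2b1, its partner in the core hnRNP particle, stood at 378 and 379 FPKM against 222 and 234 FPKM (-0.73, limma adjusted p = 0.0012). The ratio of Hnrnpa1 to Hnrnpa2b1 was 3.51 and 3.05 in WT and 2.19 and 2.72 in R111A.

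The hnRNPs that bind G runs differed among themselves. Hnrnph1 stood at 303 and 302 FPKM (WT) against 157 and 241 FPKM (R111A) (-0.64, limma adjusted p = 0.021), and its X-linked paralogue Hnrnph2 at 65.7 and 70.1 FPKM against 61.1 and 86.5 FPKM (0.10, 95% interval -0.30 to 0.49, and -0.23 with TPM), which rose when R111A replicate 1 was left out. The ratio of Hnrnph1 to Hnrnph2 was 4.62 and 4.31 in WT and 2.56 and 2.78 in R111A, although the R111A replicates differed in the level of both genes. Without R111A replicate 1 the log2 fold change of Hnrnph1 was -0.33. Hnrnpf, the most abundant hnRNP mRNA in both R111A libraries, stood at 827 and 731 FPKM (WT) against 636 and 721 FPKM (R111A) and did not pass the test (-0.20, limma adjusted p = 0.23), although it fell with TPM (adjusted p = 0.0045). Hnrnpul1 (94.1 and 90.5 FPKM against 95.6 and 76.01 FPKM) and Hnrnpdl (239 and 253 FPKM against 193.81 and 249.29 FPKM) did not pass either. With TPM both fell (adjusted p = 0.018 and 0.012), as did Hnrnpul1 without R111A replicate 1 and Hnrnpdl without R111A replicate 2. Their counterparts fell as deposited, Hnrnpul2 from 60.4 and 63.8 FPKM to 39.5 and 36.4 FPKM (-0.70) and Hnrnpd, the AU-rich element binding protein AUF1, from 40.2 and 41.0 FPKM to 29.7 and 24.7 FPKM (-0.57), with limma adjusted p = 0.0022 and 0.0093. The ratio of Hnrnpul1 to Hnrnpul2 was 1.56 and 1.42 in WT and 2.42 and 2.09 in R111A, and that of Hnrnpd to Hnrnpdl 0.168 and 0.162 against 0.153 and 0.0992. Of the remaining members, Hnrnpk, which binds C-rich RNA and DNA, fell from 441 and 432 FPKM to 260 and 287 FPKM (-0.68, limma adjusted p = 0.0021). Hnrnpu, a nuclear scaffold protein, fell from 299.88 and 266 FPKM to 159 and 166 FPKM (-0.79, limma adjusted p = 0.0011). Hnrnpr fell from 28.7 and 28.7 FPKM to 15.4 and 19.0 FPKM (-0.72), and Hnrnpm from 322 and 317 FPKM to 233 and 230.1 FPKM (-0.46), with limma adjusted p = 0.0037 and 0.011. Hnrnph3, the least abundant, fell from 13.7 and 14.5 FPKM to 10.0 and 10.7 FPKM (-0.41, limma adjusted p = 0.033), a call lost with median-of-ratios factors. Hnrnpa0 did not pass, at 170.4 and 183 FPKM against 182 and 107 FPKM, with R111A replicate 1 inside the WT range, and fell with TPM or without R111A replicate 1. The median of the 20 genes was -0.55, and the 4 classes had medians between -0.65 and -0.45, or between -0.98 and -0.79 with TPM. The calls of Hnrnpd, Hnrnpl, Hnrnpm and Hnrnph3 were lost without WT replicate 1 and without WT replicate 2, and those of Hnrnpl, Hnrnpm, Hnrnph1 and Hnrnph3 with quantile normalization; that of Hnrnph1 was also lost with no filter.

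**Figure D4:**
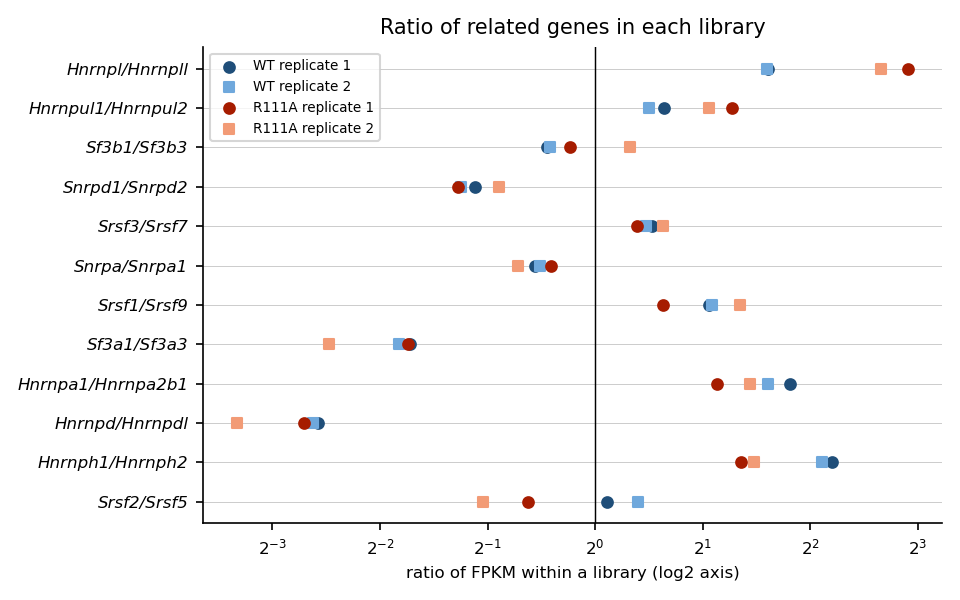
Ratio of the FPKM of related genes within each library (log2 axis), ordered by the difference between the groups, with circles for replicate 1, squares for replicate 2, blue for WT and red for R111A. The R111A libraries lie to the right for Hnrnpl/Hnrnpll (7.54 and 6.30 against 3.05 and 3.04) and to the left for Srsf2/Srsf5 (0.651 and 0.487 against 1.08 and 1.32), and for 5 of the 12 pairs the groups overlap.

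A ratio within a library does not change with a single factor per library, and 13 pairs of related genes were read this way. One of them, Snrpb to Snrpn, gave no ratio because Snrpn was near 0. Of the other 12 pairs, 3 had a higher ratio in each R111A library than in either WT library, 4 a lower one, and 5 overlapped. The overlapping pairs include Snrpd1 to Snrpd2, at 0.460 and 0.421 in WT and 0.413 and 0.539 in R111A, and Snrpa to Snrpa1, at 0.678 and 0.702 against 0.753 and 0.608. Sf3a1 to Sf3a3 overlapped too, at 0.303 and 0.283 against 0.299 and 0.180, since R111A replicate 1 lay within the WT range. The smallest two-sided p that permuting 2 against 2 libraries allows is 0.333, and no test of these ratios was made.

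The 2 R111A libraries disagreed in a way that followed base composition. Of the 50 genes, 14 were over 1.2-fold higher in R111A replicate 2 than in replicate 1, among them Hnrnph1, Hnrnpa3, Hnrnpc, Srsf3 and Srsf10, and the median GC content of their transcripts was 43.8%. The 10 genes that were over 1.2-fold higher in replicate 1, among them Sf3a1, Sf3a2, Sf3b4, Snrpa and Hnrnpa0, had a median of 54.8%. Across the 50 genes the log2 difference of replicate 1 less replicate 2 correlated with GC content at a Spearman's rho of 0.74, and across 9746 genes tested at 0.66; all points share the same 2 libraries, and genes are not independent. The fold change between R111A and WT correlated with GC content at -0.22 and 0.02 over the same genes. Once each library had been corrected for transcript length and GC content by a loess curve, 35 of the 50 genes fell, against 36.1% of all genes in that fit, and 0 rose, against 28.1%. Hnrnpa3 (474 and 434 FPKM for WT, 251 and 395 FPKM for R111A) and Hnrnpc (335 and 346 FPKM against 200 and 303 FPKM), which had limma adjusted p of 0.053 and 0.064 as deposited, were among those that then fell.

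The other genes of the splicing pathway were read from 10 lists with 174 tested genes in all, none of them among the 52. Of these 174 genes 65 fell (37.4%, close to the 32.1% of all genes tested) and 19 rose (10.9%, against 21.2%), with a median of -0.25. With TPM 114 fell (65.5%, against 51.8% of all genes) and 5 rose (2.87%, against 13.6%). The counts of single lists rest on few genes, and they are given as a description beside these shares of all genes. No gene rose as deposited in the lists of the tri-snRNP, of snRNP assembly and of the helicases. In the tri-snRNP list 10 of 16 genes (62.5%) fell, including Prpf31, which binds the U4 RNA stem, at 94.7 and 87.7 FPKM in WT against 35.7 and 39.2 FPKM in R111A (-1.26, adjusted p = 1.1e-04 from limma), and Snu13, which prepares the site for it, at 414 and 417 FPKM against 194 and 227 FPKM (-0.98). Of 16 assembly genes 8 fell, the lowest being Gemin4 (42.1 and 36.5 FPKM against 13.9 and 11.7 FPKM, -1.55) and Gemin5 (26.6 and 23.5 FPKM against 11.7 and 10.6 FPKM, -1.10) of the SMN complex, which loads Sm proteins onto snRNA. Among 9 helicases 3 fell (33.3%, near the share of all genes), including Dhx15, which takes apart the spent spliceosome, at 214 and 225 FPKM against 95.8 and 129 FPKM (-0.97), and Ddx39a at 298 and 304 FPKM against 162 and 169 FPKM (-0.86). With TPM 8 of the 9 helicases fell (88.9%, against 51.8% of all genes).

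The LSm proteins form rings like that of the Sm proteins. Of 11 LSm genes 6 fell (54.5%, against 32.1% of all genes) and 1 rose (9.09%, against 21.2%). Lsm8, which belongs to the nuclear ring on U6 RNA, stood at 135 and 162 FPKM in WT against 64.4 and 77.5 FPKM in R111A (-1.05), whereas Lsm1, its counterpart in the cytoplasmic mRNA decay ring, stood at 14.6 and 16.2 FPKM against 19.2 and 21.6 FPKM (0.39, limma adjusted p = 0.046, lost with TPM, with no filter, and when WT replicate 1, WT replicate 2 or R111A replicate 2 was left out). Naa38, a LSm-domain protein of an acetyltransferase rather than of a snRNP, was the lowest of the list, at 107 and 95.5 FPKM against 33.4 and 51.0 FPKM (-1.27). Of 15 U2AF and branch point genes 5 fell (33.3%, near the share of all genes) and 1 rose, and with TPM 11 fell (73.3%) and 0 rose. Phf5a, an SF3b subunit outside the naming rule, stood at 71.8 and 64.5 FPKM against 32.4 and 30.6 FPKM (-1.09), and Htatsf1, a U2 partner, at 49.6 and 48.8 FPKM against 18.5 and 27.1 FPKM (-1.10). Rbm39, an RS-domain partner of U2AF, rose from 161 and 150 FPKM to 222 and 282 FPKM (0.68, limma adjusted p = 0.0048), a call lost with TPM (adjusted p = 0.062).

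Of 22 kinases and relatives of SR proteins 5 fell (22.7%, against 32.1% of all genes) and 3 rose (13.6%, against 21.2%). With TPM 12 fell (54.5%, against 51.8%) and 2 rose (9.09%, against 13.6%). Clk4, a kinase that phosphorylates SR proteins, rose from 22.6 and 25.0 FPKM in WT to 52.6 and 67.5 FPKM in R111A (1.29, standard error 0.16, adjusted p = 2.4e-04 from limma), the highest fold change in all the splicing lists. Clk1, of the same kinase family, rose from 78.9 and 78.5 FPKM to 132 and 153 FPKM (0.85, limma adjusted p = 8.8e-04). Both were higher with TPM as well, by 0.97 and 0.51. Tra2b, an SR-like activator of splicing, fell from 147 and 157 FPKM to 52.7 and 66.7 FPKM (-1.34, limma adjusted p = 1.5e-04). Rnps1, an SR-related protein found at exon junctions, fell from 222 and 214 FPKM to 95.2 and 76.1 FPKM (-1.35, limma adjusted p = 1.2e-04).

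Among 37 other regulators 18 fell (48.6%, against 32.1% of all genes) and 1 rose (2.70%, against 21.2%). Celf2, a regulator with a known role in T cell splicing, stood at 12.5 and 10.3 FPKM (WT) against 3.22 and 3.46 FPKM (R111A) (-1.51, limma adjusted p = 8.7e-05), and Syncrip, also known as hnRNP Q but outside the naming rule, at 169 and 160 FPKM against 60.1 and 75.6 FPKM (-1.27). The gene that rose was Rbm5, from 45.0 and 43.3 FPKM to 69.4 and 79.8 FPKM (0.74, limma adjusted p = 0.0019), also with TPM (0.41). In contrast, 3 lists had medians close to 0. Among 12 Snrnp and minor spliceosome genes 3 fell and 4 rose, and with TPM 6 fell and 2 rose. Snrnp200, the helicase that unwinds U4 from U6, fell from 74.4 and 58.4 FPKM to 34.0 and 28 FPKM (-1.07), and Rnpc3, a protein of the minor spliceosome that bridges its U11 and U12 snRNPs, rose from 12.1 and 13.3 FPKM to 20.3 and 21.8 FPKM (0.69, limma adjusted p = 0.0032, lost without WT replicate 1). Zrsr1, a U2AF-like gene, rose from 3.59 and 3.99 FPKM to 7.82 and 6.47 FPKM (0.76), while Snrnp25, a U11 and U12 protein, went from 35.2 and 37.9 FPKM to 29.2 and 24.2 FPKM (-0.44, limma adjusted p = 0.030, lost with median-of-ratios factors, quantile normalization or no filter, and when either WT library was left out).

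The lists of the PRP19 complex and of nonsense-mediated decay held genes of both directions, as the genes tested as a whole did. Of 21 PRP19 and catalytic-stage genes 5 fell (23.8%) and 6 rose (28.6%), against 32.1% and 21.2% of all genes. With TPM 9 fell (42.9%) and 0 rose, against 51.8% and 13.6%. Ppil1, a cyclophilin of the active spliceosome, fell from 95 and 88.6 FPKM to 46.1 and 42.1 FPKM (-1.04), and Cdc40, a factor of exon ligation, from 33.7 and 33.0 FPKM to 13.5 and 19.6 FPKM (-0.99). Isy1 rose from 129 and 129 FPKM to 193 and 192 FPKM and Snw1 from 85.0 and 85.8 FPKM to 116 and 140.5 FPKM, both with a log2 fold change of 0.58 (limma adjusted p = 0.0039 and 0.0077), which with TPM was 0.24 for each and did not pass, and both calls were lost when either WT library was left out. Of 15 genes of decay and the exon junction complex 2 fell (6 with TPM), namely Smg8 (16.3 and 14.8 FPKM against 7.75 and 6.67 FPKM, -1.01) and Magohb (63.8 and 75.7 FPKM against 31.1 and 41.7 FPKM, -0.93). Of the 3 that rose, Smg9 stood at 20.5 and 19.1 FPKM against 33.9 and 23.7 FPKM (0.50) and Upf3a at 29.5 and 27.1 FPKM against 40.7 and 39.9 FPKM (0.50), and no gene of the list was called as risen with TPM. Both calls were also lost when either WT library was left out, and that of Smg9 without R111A replicate 1 or with no filter.

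**Figure D5:**
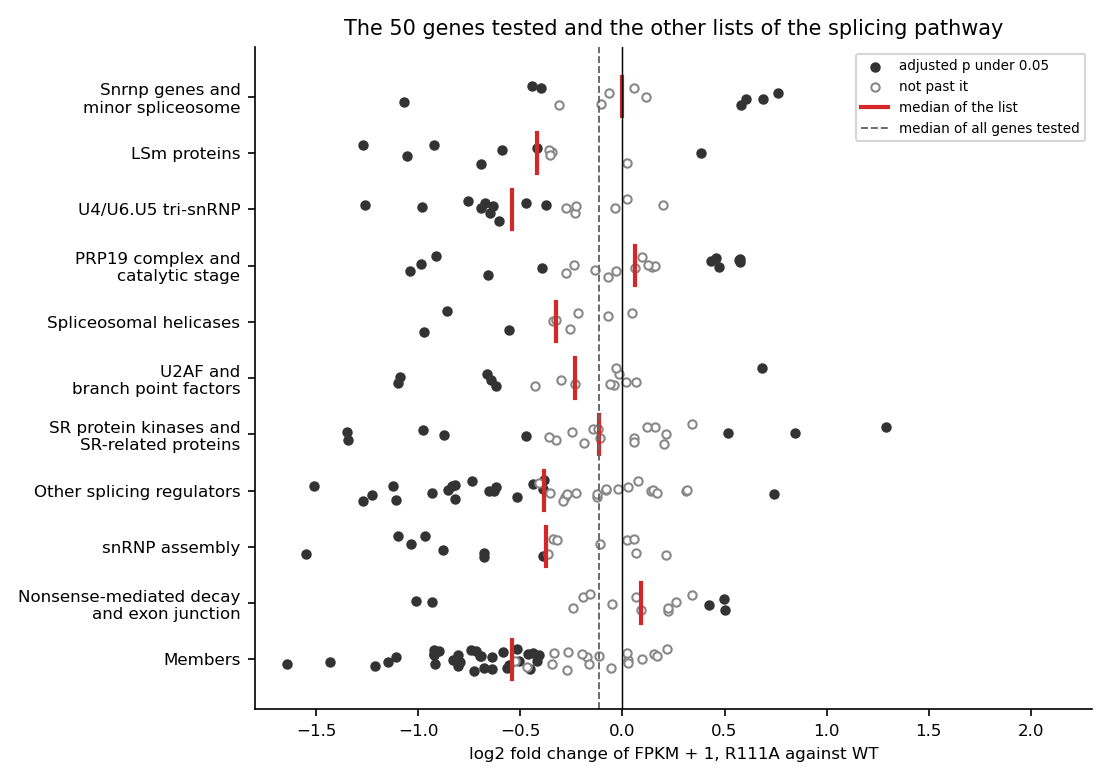
Log2 fold change (FPKM + 1, R111A against WT) of each tested gene in the 10 pathway lists and of the 50 genes of the naming rule (bottom row), filled where limma's adjusted p was under 0.05, with the median of each list in red and that of all genes tested (-0.12) as a dashed line. Filled points at the right are few, with Clk4 furthest at 1.29, and the bottom row has none.

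Promoters were compared for a feature that the naming rule did not use. RefSeq promoters of GRCm38.p6 matched 46 of the 52 genes, and the 250 bases before each start were searched on both strands for 4 motifs, none of which contains another. CCGGAAG, the core of an ETS factor site, was present before at least 1 start of 15 of the 46 genes (32.6%), against 18.2% of the 8041 genes tested that had a promoter and 7.83% of all 27025 genes with one. A gene with several starts has more chance of a match. By class, a split made after the matches were seen, it was found in 6 of 7 Sf3a and Sf3b genes, in 3 of 10 Snrp genes, in 4 of 11 Srsf genes and in 2 of 18 Hnrnp genes. It was found in 9 of 27 genes that fell and in 6 of 17 that did not pass the test, a difference that was not tested. The 6 genes without a matched promoter, Snrpb and Hnrnpll (the lowest of the 50 by fold change), Snrpd1, Sf3b4, Sf3b5 and Hnrnpul2, are missing from these counts. CACGTG, the E-box bound by MYC and its relatives, was in 4 of 46 (8.70%, against 10.4% of genes tested), GCATGCGC, part of the NRF1 motif, in 3 (6.52%, against 5.68%), and AAGATGGC, the YY1 motif, in 1 (2.17%, against 2.62%). A match is a string of letters, and no binding was measured.

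The promoters of 3 SF3 genes show where the shared motif lies, in a gene past both thresholds (Sf3a1), in a gene that fell by less (Sf3a3) and in the gene with the highest fold change (Sf3b6). Each is given 5′ to 3′ on the gene's strand, the + strand for all 3, and ends at the base before the start; capitals mark CCGGAAG or its reverse complement. They lie at chr11:4160104-4160353, chr4:124714611-124714860 and chr12:4817358-4817607 of GRCm38.p6.
Sf3a1: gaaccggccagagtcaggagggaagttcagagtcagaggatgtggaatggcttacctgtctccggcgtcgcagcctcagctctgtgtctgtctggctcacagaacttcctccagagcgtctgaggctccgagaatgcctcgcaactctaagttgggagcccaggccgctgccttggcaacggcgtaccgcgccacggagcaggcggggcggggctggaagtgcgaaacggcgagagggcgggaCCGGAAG
Sf3a3: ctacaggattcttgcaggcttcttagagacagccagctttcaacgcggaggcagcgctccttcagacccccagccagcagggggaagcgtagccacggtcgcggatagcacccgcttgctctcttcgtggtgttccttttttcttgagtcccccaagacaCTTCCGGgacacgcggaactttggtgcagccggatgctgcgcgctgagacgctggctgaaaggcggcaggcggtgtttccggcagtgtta
Sf3b6: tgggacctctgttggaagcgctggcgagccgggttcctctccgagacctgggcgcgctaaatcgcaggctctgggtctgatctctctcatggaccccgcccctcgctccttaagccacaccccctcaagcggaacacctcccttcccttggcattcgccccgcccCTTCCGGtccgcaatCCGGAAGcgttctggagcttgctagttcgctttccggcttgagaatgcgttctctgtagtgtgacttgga
In Sf3a1 the motif is the last stretch before the start, in Sf3a3 it is further upstream on the opposite strand, and Sf3b6 has 2 copies that point away from each other.

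Markers were read for the cell type and for other cells. All 8 CD4+ T cell markers in the table were above 1 FPKM in every library, with sums of 2019 and 2009 FPKM (WT) against 1740 and 1600.3 FPKM (R111A). Cd3g, at 454 and 465 against 289 and 313 FPKM, was the highest except in R111A replicate 1, where Cd5 (296 FPKM) and Lck (295 FPKM) were above it. By limma's adjusted p 4 of the 8 fell, against 32.1% of all genes, and 1 rose, against 21.2%. The marker that rose was Cd3d, from 205 and 214 FPKM to 275 and 267 FPKM (0.37, limma adjusted p = 0.029). Cd2 did not pass, at 218 and 228 FPKM against 264 and 241 FPKM. Cd4 itself was lower in R111A, at 70.7 and 51.4 FPKM against 158 and 131 FPKM (-1.24, adjusted p = 5.7e-04 from limma). The CD8+ T cell markers, Cd8a and Cd8b1, summed to 7.31 and 6.76 FPKM (WT) against 3.88 and 4.46 FPKM (R111A), nearly all of it Cd8b1.

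Markers of cells that the sort should remove were low, and 4 lists had higher sums in each R111A library than in either WT library. Several of these genes, such as Klrd1, Eomes, Lyz2 and Hba-a1, reached the filter only through their R111A level, so no count of tested genes is given. The 6 B cell markers summed to 2.21 and 1.00 FPKM (WT) against 5.24 and 4.55 FPKM (R111A), with Cd79a the most abundant (2.99 and 2.37 FPKM in R111A). The 8 myeloid markers summed to 5.80 and 2.33 FPKM against 17.4 and 14.8 FPKM, led by Cd68 (8.89 and 6.81 FPKM in R111A), whereas Tyrobp stood at 2.94 and 0.63 against 0.85 and 0.97 FPKM and Csf1r was near 0 throughout. The 4 NK cell markers summed to 1.93 and 1.22 FPKM against 19.2 and 18.2 FPKM, led by Klrd1 (12.1 and 13.6 FPKM in R111A). The 6 erythroid markers summed to 0.66 and 0.70 FPKM against 12.9 and 13.0 FPKM, nearly all of it Hba-a1, with Hba-a2 and Hbb-bs listed at 0 in all 4 libraries. Activated T cells can express Klrd1 and Eomes, and which cells the markers of these 4 lists came from was not tested. Fewer cells of a type and less RNA per cell cannot be told apart in bulk libraries, and the part of these markers, of the ribosomal protein share and of depth in the lower splicing transcripts was not tested.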

How the data were processed

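The data are FPKM values of 16142 genes in 1 table that the authors deposited, for 2 WT and 2 R111A libraries of polyA RNA. Per the submitters' notes, Bowtie2 2.4.4 (mm10) and RSEM 1.2.28 gave these values. There were 0 further per-sample columns. Counts were not used here. Groups were taken from the labels.

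The 9831 genes whose mean reached 1 FPKM were tested, R111A against WT, with limma (version 3.58.1, R 4.3.3; lmFit and eBayes with a trend, two-sided) on log2(FPKM + 1), which understates the change of low genes, and Benjamini-Hochberg adjustment over all of them. The test was checked on simulated data. The members, the gene lists and the tests were chosen with earlier results of these data known. The genes named were every member past both thresholds, in each class the 2 with the highest and lowest fold change and the 2 most abundant, the related pairs, members below the filter, up to 2 genes in each direction per pathway list past an adjusted p of 0.05, Zc3h12a and the markers; the other members were named after their values were seen. So were the shares within the Sm and SR sets, the ribosomal protein share, the 1.2-fold limit, the relation to GC content, the split of promoter matches by class and the depth bandwidths. Nhp2l1 and Ddx39 are earlier symbols of Snu13 and Ddx39a, under which these genes were analysed; Trbc1 and Trbc2 were not analysed here.

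Transcript length and GC content came from GENCODE transcripts of GRCm38, gene positions and promoters from RefSeq (GRCm38.p6). Proteins were not used here. The 15 alternative fits changed 1 choice each: the pseudocount (0.1 or 5 FPKM), the filter (none, or 5 FPKM), the scaling (TPM, median-of-ratios factors, quantile normalization, or a loess trend in length and GC content, span 0.5, removed), a replicate block, eBayes (no trend, or robust), and each library left out. The adjusted p alone was a further alternative to both thresholds. Summaries used python 3.11.15, numpy 2.4.6, pandas 2.3.3 and scipy 1.17.1.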

Additional observations from a re-analysis of the deposited data

How the results depend on the processing

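As deposited 32 genes fell, 0 rose and 5 were past both thresholds, against 32.1%, 21.2% and 8.34% of all genes. With TPM 20 genes were past both thresholds, against 17.8% of all genes, and the median was -0.87 (-0.42 for all genes). With quantile normalization 21 fell, 1 rose (Sf3b6) and 3 were past both thresholds (not Hnrnpa1 or Sf3a1), against 26.7%, 23.6% and 7.35% of all genes, with a median of -0.37 (-0.04 for all genes). The median was -0.45 with median-of-ratios factors and -0.47 with the trend in length and GC content removed. Without the fold threshold 32 genes were lower in place of 5. What lies behind these shifts was not tested.

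When each library was left out in turn, so that a lone library is assumed to vary like the other group, 5 to 8 genes were past both thresholds, 23 to 36 fell, 0 to 2 rose and the median lay between -0.57 and -0.53. The share of all genes that fell moved too, to 19.9% and 19.7% without WT replicate 1 and 2 and to 37.6% and 38.6% without R111A replicate 1 and 2. The 8 and the 2 risen genes (Hnrnph2 and Snrpf) came without R111A replicate 1. Hnrnpll, Snrpb and Hnrnpab were past both thresholds in 15 of 15 alternatives, Hnrnpa1 in 13 and Sf3a1 in 12.

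The sign of the log2 fold change turned in 26 cases, each in a member that did not pass the test as deposited. With TPM these were Snrpe (-0.31), Srsf5 (-0.18), Hnrnph2 (-0.23), Sf3b6 (-0.11), Snrpg (-0.31), Snrpf (-0.17) and Sf3b1 (-0.31), all above 0 as deposited. With quantile normalization they were Srsf6 (0.0651), Hnrnpdl (0.0536), Hnrnpul1 (0.13), Snrpg (-0.0292) and Snrpd3 (0.0806), with median-of-ratios factors Snrpd3 (0.0339), and with the length and GC trend removed Snrpe (-0.11) and Snrpd3 (0.0302). With each library left out in turn, 9 members ran across 0: Snrpe from -0.17 to 0.22, Sf3b1 from -0.15 to 0.19, Hnrnpdl from -0.34 to 0.0187, Snrpd3 from -0.15 to 0.0288, Srsf5 from -0.00142 to 0.32, Hnrnph2 from -0.15 to 0.34, Hnrnpul1 from -0.28 to 0.0501, Snrpg from -0.0894 to 0.14 and Hnrnpa0 from -0.72 to 0.0441.

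With the replicate block, 34 genes fell, 0 rose and 5 were past both thresholds, against 34.2%, 22.7% and 8.35% of all genes. The deviations of the WT and R111A libraries with the same number correlated at 0.11 over the genes tested, and with 2 pairs the numbers are only shared labels.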
